A study of Mus musculus with 4 samples.

Results

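The difference between kidneys of mice injected with saline at ZT14 and at ZT2 is described here, over every gene whose array probe was well above background on at least 1 of the 2 saline arrays. That rule kept 24176 of 37074 gene entries on the array, of which 21924 were above background on both saline arrays, 1693 at ZT14 alone and 559 at ZT2 alone. Across all 4 arrays of the series 24640 entries were above background on at least 1. The mice were of the ICR strain, an outbred stock, and were given saline at zeitgeber time 2 (ZT2, early in the light phase) or ZT14 (early in the dark phase). Both saline samples were of kidney, taken 1 day after injection, so the time of day of collection goes with that of injection. The labels give neither age nor sex, and do not say whether a sample was 1 animal or a pool. The other 2 samples of the series received vancomycin, an antibiotic that can injure the kidney, at the same times.

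In mammals the daily clock runs in nearly every tissue, the kidney included. BMAL1 (gene Arntl) and CLOCK bind E-box letters and switch on the Per, Cry and Nr1d1 genes, whose products hold back that activation, and REV-ERB-alpha (Nr1d1) and the ROR receptors compete over Arntl itself. Output factors such as Dbp, Tef, Hlf and Nfil3 pass the rhythm to transport, detoxification and metabolic genes, and sodium and water handling by the kidney follow the time of day.

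There was 1 array a side, so the values below are sizes without a test, and spread between animals is unknown. Both ZT2 arrays of the series lay on 1 slide and both ZT14 arrays on another, scanned separately, so slide and time cannot be told apart. Signals were scaled so that the 75th percentile of each array was 1000, and a difference is the log2 signal at ZT14 minus that at ZT2. A gene is represented by its brightest probe, and 2-fold (1 on the log2 scale) is the size rule. Where a probe was above background on 1 array, its difference is a bound under this processing, written as "at least". The direction of a bound is set by which array was above background. The same probe spotted 10 times on an array varied by a median SD of 0.043 at ZT2 and 0.051 at ZT14 (log2), which covers spotting alone. Across the 8 spike-in controls above background the difference ran from -0.39 to 0.88 with a median of -0.03. The labelled tissue was borne out by its markers, since all 15 proximal tubule, 18 distal nephron and 12 podocyte markers were above background on both saline arrays.

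Of the 24176 genes, 2025 (8.38%) were at least 2-fold higher at ZT14 and 843 (3.49%) at least 2-fold lower. Among the 21924 genes above background on both arrays 1604 (7.32%) were higher and 673 (3.07%) lower, with a median difference of 0.03, quartiles of -0.29 and 0.38, and an SD of 0.66 across genes. Counts past 2-fold in the gene lists below are to be read beside the shares of 7.32% and 3.07%. The surplus of higher genes depends in part on scaling. Higher genes made up 70.6% of those past 2-fold with the 75th percentile, 60.2% with the array median, which moved the median of all genes from 0.03 to -0.08, and 62.1% after quantile normalization. With genes split by mean signal into classes of 10% each, the brightest class had a median of 0.12. The median did not rise steadily with signal, since it was 0.02 in the class just below the brightest and 0.14 in the class next to the dimmest. At least 2-fold higher were 6.34% of the brightest class and 14.3% of the class next to the dimmest.

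**Figure D1:**
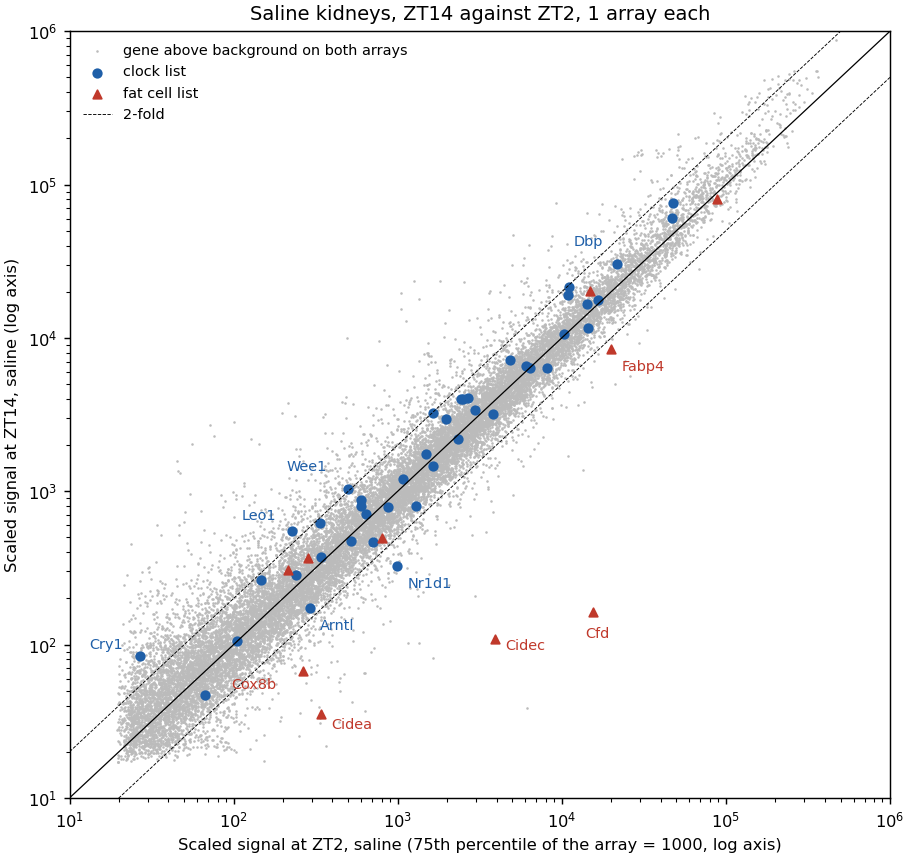
Scaled signal of each gene above background on both saline arrays, ZT2 on the horizontal and ZT14 on the vertical axis (both log axes, 75th percentile of each array set to 1000), with the clock list in blue and the fat cell list as red triangles. Most clock genes lie inside the dashed 2-fold lines with Nr1d1 below and Cry1 above them, while Cfd and Cidec lie far below.

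Of 46 genes in the 3 clock lists, 42 were above background on both arrays, and 3 of them (7.14%) were at least 2-fold higher and 1 (2.38%) at least 2-fold lower at ZT14. Both shares are near those of all genes above background on both arrays, 7.32% and 3.07%. The core members that stood apart were Nr1d1, lower at ZT14, and Cry1, higher at ZT14. Arntl was lower by less than 2-fold, while Per2, Per3, Usp2 and Tspan4 were higher by less than 2-fold. In all, 29 members were above 0 and 13 below, with a median of 0.21.

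Among repressors of the loop, Nr1d1, the nuclear receptor that silences Arntl, had a scaled signal of 985 at ZT2 and 325 at ZT14, a difference of -1.60 or 3.03-fold. Its single probe lies at chr11:98630526-98631028 of mm9, the build the array files use. Cry1, a repressor that closes the loop late in the cycle, went the other way. Its signal was 26.9 at ZT2 and 84.0 at ZT14, a difference of 1.64 (probe at chr10:84647094-84647153). The ZT2 value of Cry1 was close to background, and with another background correction (normexp, which adds an offset of 50) its difference was 0.47. Its other probe, above background on 1 array, gave at least 1.22.

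The Period genes, partners of the cryptochromes in repression, were higher at ZT14 in graded amounts. Per3 had a signal of 338 at ZT2 and 616 at ZT14, a difference of 0.87. Per2 had 2485 and 3989, a difference of 0.68. Per1 had 2941 and 3395, and its difference of 0.21 was the smallest of the family. Their probes disagreed in size, since the 3 probes of Per3 ranged from 0.22 to 0.87 and the 2 of Per2 from 0.17 to 0.68.

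Cry2, the second cryptochrome, had 2678 at ZT2 and 4071 at ZT14, a difference of 0.60. Ciart, a repressor of CLOCK and BMAL1, had 147 and 262, a difference of 0.84. Nfil3, which acts on D-box letters against Dbp, had 593 and 880, a difference of 0.57. Nr1d2, the relative of Nr1d1, had a difference of 0.72 by its brightest probe, but its 3 probes ranged from -0.46 to 0.72.

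On the activator side, Arntl had 290 at ZT2 and 172 at ZT14, a difference of -0.75, and its 3 probes ranged from -0.76 to -0.65, with 1 of them above background on 1 array alone. Npas2, which can stand in for Clock, was above background at ZT2 alone, with 23.5, and its difference was -0.50 or lower. Clock itself differed by -0.08, with 3 probes between -1.04 and -0.08. Rora differed by 0.04. Rorb and the repressor Bhlhe41 were not above background on either saline array, and the output gene Nampt was left out because its probe carried an outlier flag.

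Of 22 outputs (Ciart counted here too) above background on both arrays, 17 were above 0 and 2 at least 2-fold higher, a share near the 7.32% of all genes, with a list median of 0.30. Wee1, the mitosis kinase driven by the clock, had 500.0 at ZT2 and 1027 at ZT14, a difference of 1.04 (0.93 with median scaling), and at least 1.44 by its other probe, which was above background on 1 array alone. Leo1, a subunit of the PAF1 transcription complex, had 226 and 552, a difference of 1.29 that was 0.87 with normexp correction. Its only probe carries a purine triplet repeat of the kind described further on, and the part of the repeat in this value was not tested.

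Tspan4, a tetraspanin, had 11079 at ZT2 and 21439 at ZT14, a difference of 0.95. Usp2, a deubiquitinase, had 10951 and 18998, a difference of 0.79. The D-box activators were higher by small amounts by their brightest probes, Dbp with 21696 and 30496 (0.49), Hlf with 1975 and 2977 (0.59) and Tef with 46719 and 60366 (0.37). The probes of Dbp ranged from 0.49 to 0.99 and those of Tef from 0.19 to 1.81. Por, the electron donor of the cytochrome P450 enzymes, differed by 0.67. St3gal5 (-0.60), Rgs16 (-0.51), Klf15 (-0.35) and Klf9 (-0.33) were on the other side of 0.

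In the vancomycin pair, which shares slides but no array with the saline pair, 36 of these 42 genes had the same sign. Over 20748 genes the differences of both pairs had a Pearson r of 0.64, so agreement between the pairs extended beyond clock genes. The share of all genes with the same sign was not counted, so 36 of 42 cannot be set against it. Nr1d1 differed in the vancomycin pair by -2.33, Cry1 by 1.34, Arntl by -0.73, Wee1 by 1.33 and Per2 by 0.87. The values of both pairs lie side by side in the plot of clock genes.

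**Figure D2:**
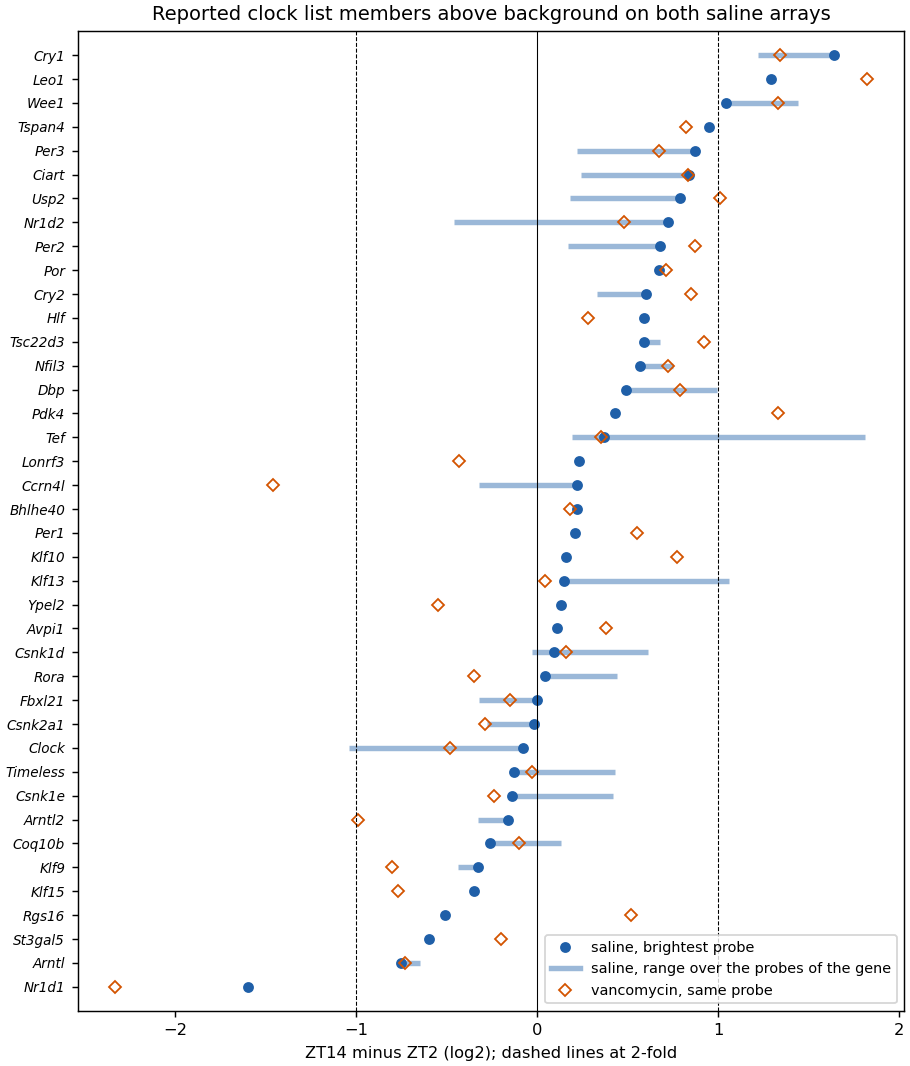
ZT14 minus ZT2 (log2) of the reported clock list members above background on both saline arrays, as the brightest probe in saline (blue), the range over the probes of the gene in saline (light bar) and the same probe in the vancomycin pair (orange). Nr1d1 lies at -1.60 and Cry1 at 1.64 in saline, and the bars show that probes of Nr1d2, Tef and Clock disagreed.

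The promoters of 5 clock genes that carry known clock letters are shown, since these genes lie at both ends of the list. Each is taken from RefSeq in the build GRCm38.p6, covers 250 bases before and 50 after the annotated start, and runs 5′ to 3′ in the direction of the gene. Capitals mark the letters searched on both strands, which were E-box CACGTG, E-prime box CACGTT, ROR element TAGGTCA or TGGGTCA, D-box TTATGTAA or TTACGTAA, and CRE TGACGTCA. Nr1d1 is at chr11:98775328-98775627 (reverse strand), Cry1 at chr10:85185005-85185304 (reverse), Arntl at chr7:113207261-113207560 (forward), Ciart at chr3:95882179-95882478 (reverse) and Per3 at chr4:151044616-151044915 (reverse).
Nr1d1 promoter: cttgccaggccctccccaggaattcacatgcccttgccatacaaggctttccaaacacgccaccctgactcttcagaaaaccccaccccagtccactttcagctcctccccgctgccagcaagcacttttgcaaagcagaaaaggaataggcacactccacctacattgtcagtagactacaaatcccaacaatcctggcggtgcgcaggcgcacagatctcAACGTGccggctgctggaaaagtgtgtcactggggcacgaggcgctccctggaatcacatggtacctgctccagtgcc
Cry1 promoter: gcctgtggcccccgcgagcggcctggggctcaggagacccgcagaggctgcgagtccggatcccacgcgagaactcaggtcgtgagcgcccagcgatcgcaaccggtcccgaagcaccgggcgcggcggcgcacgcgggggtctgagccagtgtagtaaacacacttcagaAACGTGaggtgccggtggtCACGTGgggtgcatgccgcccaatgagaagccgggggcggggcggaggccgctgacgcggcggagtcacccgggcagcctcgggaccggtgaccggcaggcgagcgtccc
Arntl promoter: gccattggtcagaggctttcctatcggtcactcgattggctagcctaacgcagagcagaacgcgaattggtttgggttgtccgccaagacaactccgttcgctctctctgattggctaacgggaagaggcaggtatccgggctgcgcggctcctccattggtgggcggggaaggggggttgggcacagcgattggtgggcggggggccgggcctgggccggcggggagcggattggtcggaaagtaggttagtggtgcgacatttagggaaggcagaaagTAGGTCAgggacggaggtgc
Ciart promoter: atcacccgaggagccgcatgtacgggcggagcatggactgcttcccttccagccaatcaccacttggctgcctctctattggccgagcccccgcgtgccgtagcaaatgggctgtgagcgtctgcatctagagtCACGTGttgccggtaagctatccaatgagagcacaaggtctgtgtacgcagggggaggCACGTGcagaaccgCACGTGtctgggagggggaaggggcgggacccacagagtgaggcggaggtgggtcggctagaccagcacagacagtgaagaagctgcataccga
Per3 promoter: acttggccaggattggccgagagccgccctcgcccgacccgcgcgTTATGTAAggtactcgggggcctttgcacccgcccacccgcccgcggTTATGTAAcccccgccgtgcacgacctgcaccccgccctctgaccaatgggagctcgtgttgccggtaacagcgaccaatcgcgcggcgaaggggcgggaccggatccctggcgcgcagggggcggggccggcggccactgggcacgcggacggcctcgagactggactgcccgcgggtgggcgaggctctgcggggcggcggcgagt

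The Nr1d1 window holds 1 E-prime box, 28 bases before the start, and the Cry1 window an E-box at 60 and an E-prime box at 79 bases before it. Arntl holds a ROR element 31 bases after the start of 1 of its RefSeq entries, the element through which REV-ERB-alpha and the ROR receptors act. Ciart holds 3 E-boxes, at 116, 58 and 44 bases before the start, and Per3 has 2 D-boxes, at 205 and 158. Over all 32851 RefSeq promoters of this length 7.15% hold the E-box, 4.68% the E-prime box, 2.61% TAGGTCA and 0.938% TTATGTAA. A match describes letters only. Genes with an E-box or E-prime box stood on both sides of 0 (Cry1 and Nr1d1), and so did those with a ROR element, since the Arntl difference was -0.75 and that of Nfil3 0.57. The table held 51 promoters for 39 of the 46 clock genes.

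Genes of glucose and insulin signalling lay mostly above 0, with 20 of 25 members higher, 4 of them (Irs2, G6pc, Igfbp1 and Pdk1) at least 2-fold (7.32% of all genes were), and a list median of 0.33 against 0.03 over all genes. Irs2, the insulin receptor substrate, had 1677 at ZT2 and 6915 at ZT14, a difference of 2.04. G6pc, the last enzyme of glucose release, had 23870 and 62421, a difference of 1.39. Igfbp1, a binding protein of insulin-like growth factors, had 241 and 513, a difference of 1.09 that was 0.98 with median scaling and 0.84 with normexp correction. In the vancomycin pair G6pc differed by -0.63 and Igfbp1 by -1.52, both below 0. The 4 probes of Pdk1, a kinase of pyruvate dehydrogenase, disagreed, from -0.59 to 1.22.

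In vitamin D metabolism 2 of 20 list members, both enzymes, were at least 2-fold higher at ZT14 and 1 lower, against 7.32% and 3.07% of all genes. Cyp24a1, which breaks down active vitamin D, had 399 at ZT2 and 2394 at ZT14, a difference of 2.59 or 6.0-fold. Cyp27b1, which makes active vitamin D, had 1246 and 521, a difference of -1.26. Cyp2r1, the 25-hydroxylase, had 1601 and 3337, a difference of 1.06 that was 0.95 with median scaling. The rest of that list, 17 of 20 members, was within 2-fold. After vancomycin Cyp24a1 differed by 0.75 and Cyp27b1 by -3.88.

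In lipid metabolism the differences were few. Plin2, the lipid droplet coat, had 2203 at ZT2 and 7058 at ZT14 (1.68). It was the only 1 of 27 fatty acid genes past 2-fold, against 7.32% of all genes higher. Srebf2, the sterol regulator, had 1791 and 5006 (1.48), but its other probe gave 0.37. The enzymes of cholesterol and fatty acid synthesis had a median of 0.00, from -0.84 for Scd1 upward. Hadha, of mitochondrial beta-oxidation, was at -0.87.

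Of 19 chaperones and temperature-responsive RNA binding proteins 2 were at least 2-fold lower at ZT14 and 17 within 2-fold, with a median of -0.22. Over all genes above background on both arrays 3.07% were lower. Hspa1a had 6200 at ZT2 and 2303 at ZT14, a difference of -1.43, and its neighbour Hspa1b had 5075 and 2161, a difference of -1.23. The pair are near-identical genes whose probes can bind either transcript. Dnajb1, the co-chaperone, had 21922 and 11442, a difference of -0.94. Below 0 were 16 of the 19, while Hsp90aa1 was at 0.31 and Hspa8, the constitutive relative, at 0.74. Their probes lay on both sides of 0, from -0.43 to 0.31 for Hsp90aa1 and from -0.17 to 0.74 for Hspa8.

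Glucocorticoid responses did not go 1 way. Zbtb16 (491 and 1040, a difference of 1.08, or 0.92 with normexp correction) and Tsc22d3 (4803 and 7206, 0.59) were higher at ZT14. Cdkn1a, the cell cycle inhibitor, had 469 and 147, a difference of -1.68, and Ddit4, an mTOR inhibitor, had 11682 and 5416, a difference of -1.11. The list median was 0.20 over 18 genes. Among immediate early genes Fos had 73.5 and 23.9, a difference of -1.62, and Egr2, above background at ZT2 alone, was at -1.74 or lower. With normexp correction they were at -0.66 and -0.65. Of this list, 19 of 20 members above background on both arrays were within 2-fold and Myc was at 0.78.

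Among transport genes of the tubule, all 20 proximal carriers were within 2-fold, from -0.34 for Slc26a1 to 0.76 for Slc13a3, the dicarboxylate carrier. In distal sodium and water handling, Slc12a3, the thiazide-sensitive sodium chloride cotransporter, had 1822 and 3021, a difference of 0.73, and Aqp4, a water channel, was at -0.45.

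Of 24 organic ion carriers and ABC transporters, Slc22a8, the organic anion carrier OAT3, had 10138 and 20429, a difference of 1.01 that was 0.90 with median scaling. Abcb1b, a P-glycoprotein gene, had 42.4 and 95.3, a difference of 1.17 that was 0.34 with normexp correction. Slc22a19 (-0.87), Slco4c1 (-0.85) and Slco1a1 (-0.72, but 0.38 by its other probe), all organic anion carriers, were lower by their brightest probes. In detoxification Gsta3, a glutathione transferase, differed by 1.13, Fmo5 by 1.12 (-1.02 by its other probe) and the carboxylesterase Ces1g by -1.51, and 27 of 32 members were within 2-fold. Of the rest 3 were higher and 2 lower, against 7.32% and 3.07% of all genes.

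Broad housekeeping lists stayed inside 2-fold on this measure, with 0 of 24 respiratory chain, 0 of 24 proteasome, 0 of 25 ribosome biogenesis and 0 of 24 unfolded protein and stress response genes past it. Over all genes above background on both arrays 7.32% were higher and 3.07% lower. The respiratory chain had 21 of 24 members above 0 and a median of 0.19, which was -0.09 after quantile normalization, so its sign depended on the scaling. The proximal tubule marker median was 0.38 with the 75th percentile and 0.06 with quantile normalization, with Miox, the inositol oxygenase, at 1.28 and 0.64. Over 36 lists the sign of the median changed under another scaling in 9.

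**Figure D3:**
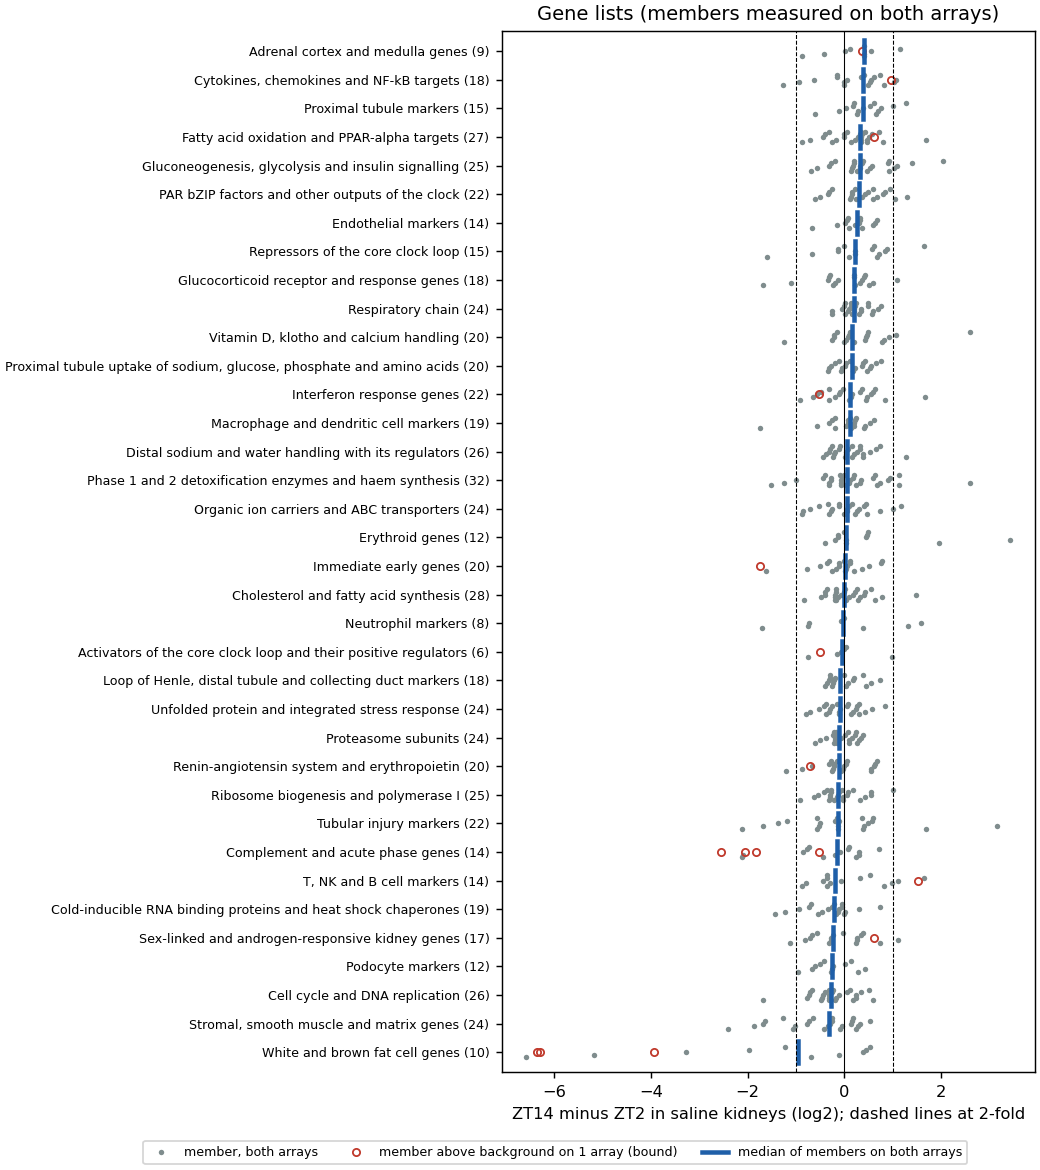
ZT14 minus ZT2 in saline kidneys (log2) of the members of 36 gene lists, with members above background on both arrays as grey points (their number in brackets), members above background on 1 array as open red circles at their bound, and the list median as a blue bar. The fat cell list has the lowest median, -0.97, and all other medians lie between -0.32 and 0.40.

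Fat cell genes were among the largest differences to the ZT2 side. Of 15 fat genes 10 were above background on both arrays, 5 of these were at least 2-fold lower at ZT14 and 0 higher, against 3.07% lower and 7.32% higher over all genes above background on both arrays. Another 3 of the 15 were above background at ZT2 alone, as were 559 of all 24176 genes. Such a gene cannot come out higher at ZT14 under the rule for bounds, so the direction of these 3 adds nothing to the count. In whole tissue, fewer cells of a type and less RNA per cell cannot be told apart. Cfd (adipsin) had 15477 at ZT2 and 162 at ZT14, a difference of -6.58 that its other probe gave as -6.62 (brightest probe at chr10:79355302-79355361). Cidec, a lipid droplet protein, had 3910 and 109, a difference of -5.17.

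Of 3 fat hormones, Adipoq and Retn were not above background at ZT14 while Lep (leptin) was, with 283 at ZT2 and 369 at ZT14, a difference of 0.38. Adipoq (adiponectin) had 1310 at ZT2 and was at least 79.0-fold lower at ZT14. Retn (resistin) had 1353 and was at least 81.5-fold lower. Plin1, the droplet coat of fat cells, had 255 and was at least 15.3-fold lower. With normexp correction the log2 differences of Adipoq, Retn and Plin1 were smaller, at -3.71, -3.75 and -1.65. Cidea, a gene of brown fat, had 339 at ZT2 and 35.1 at ZT14 (-3.27), and Cox8b, also of brown fat, 265 and 67.6 (-1.97).

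Other genes of this list above background on both arrays differed less, Fabp4 by -1.23, Pparg by -0.70, Lpl by -0.12, Pnpla2 by 0.45 and Lipe by 0.52. Ucp1 and Elovl3 were not above background on either array. In the vancomycin pair Cfd differed by -5.03, Cidec by -3.98, Cidea by -4.36, and Adipoq by -4.34 or lower. Lep and Pnpla2 differed there by 0.12 and 0.54, so the list did not move as 1 group in either pair. The summed signal of the 13 measured fat genes was 146741 at ZT2 and 110985 at ZT14 in saline, a sum to which Lpl gave the most. The part of fat tissue in these values was not tested.

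Among smooth muscle and matrix genes 7 of 24 were at least 2-fold lower at ZT14 and 0 higher, against 3.07% and 7.32% of all genes, with a median of -0.32. Acta2, smooth muscle actin, had 29448 at ZT2 and 9221 at ZT14, a difference of -1.68 over 3 probes between -1.92 and -0.98. Cnn1 (calponin) had 5018 and 945, a difference of -2.41, and Myh11, smooth muscle myosin, 1242 and 514, a difference of -1.27 by its brightest probe and up to 0.21 by the other 3. The matrix genes were Lox (-1.87), Postn (-1.65) and Col1a1 (-1.02), and Tagln was at -1.06.

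In the vancomycin pair Acta2 was at 0.20, Postn at 0.40, and Col1a1 and Tagln each at 0.55, while Lox at -1.28, Cnn1 at -0.50 and Myh11 at -0.18 were lower at ZT14 there too. The saline ZT2 array had the highest signal of all 4 arrays for 16 of the 24 genes. Actn2 (-2.00 with 5838 and 1456) and Car3 (-2.68 with 10912 and 1706), both named among the largest differences of bright genes and both known from muscle, were also highest on that array. On the vancomycin arrays Actn2 had 739 and 796, a difference of 0.11, and Car3 had 3550 and 6529, a difference of 0.88.

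**Figure D4:**
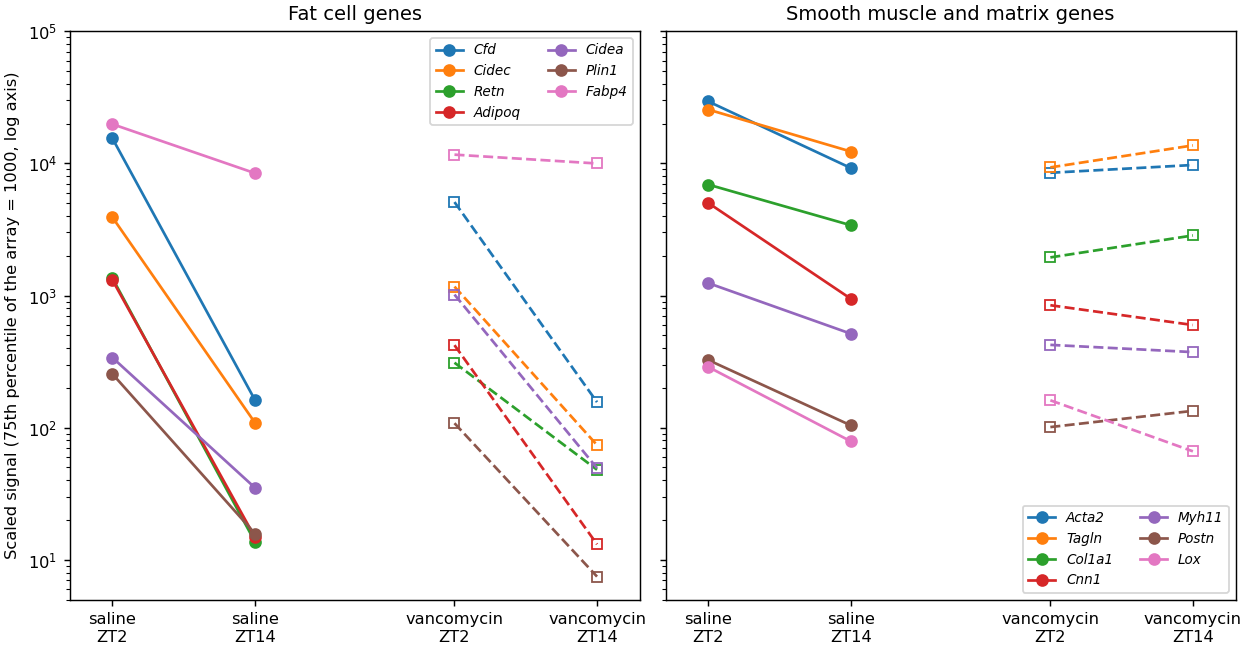
Scaled signal (log axis) of 7 fat cell genes and 7 smooth muscle and matrix genes on each of the 4 arrays, saline as filled circles joined by solid lines and vancomycin as open squares joined by dashed lines. All fat genes shown but Fabp4 lie far lower at ZT14 in both treatments, while the 7 smooth muscle and matrix genes are highest on the saline ZT2 array. Every gene shown was at least 2-fold lower at ZT14 in saline, so that direction was set by the choice of genes. The other 17 of 24 smooth muscle and matrix genes are not shown, nor are the other fat genes, of which Lep, Pnpla2 and Lipe were above 0.

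Complement and acute phase genes had no common direction, with 6 above 0 and 8 below, a median of -0.15 and 12 of 14 within 2-fold. The highest was C2, a complement component, at 0.71. Fgg, a fibrinogen chain, had 1290 at ZT2 and 298 at ZT14, a difference of -2.11, and Hp, haptoglobin, 3679 and 861, a difference of -2.09. Fgb, Serpina3n and Orm1 were above background at ZT2 alone, with differences of -2.55, -2.06 and -1.84 or lower, and that of Fgb was -0.98 with normexp correction. Fgg and Hp were lower at ZT14 in the vancomycin pair as well, with differences of -2.21 and -2.61. Hp and Orm1 are also made by fat cells. Most of the fat genes given above were lower at ZT14 as well, and their part in the result was not tested.

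Among tubular injury markers Havcr1 (KIM-1) had 52.0 at ZT2 and 462 at ZT14, a difference of 3.15 (1.80 with normexp correction), whereas it differed by -4.30 in the vancomycin pair. The list median was -0.14, with 4 of 22 members at least 2-fold lower (Fgg, Cdkn1a, Cyr61 and Krt20) and 2 higher (Havcr1 and Plin2), against 3.07% and 7.32% of all genes, and the latter share is near that of the list. Edn1, endothelin 1, had 192 and 82.9, a difference of -1.21 that was -0.76 with normexp correction. Of the other cell types, 14 endothelial and 12 podocyte markers were all within 2-fold, with medians of 0.26 and -0.26. Macrophage markers had 1 of 19 past 2-fold, Clec10a at -1.75, against 3.07% of all genes lower.

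Of 12 red cell genes 2 were at least 2-fold higher at ZT14 and 0 lower, against 7.32% and 3.07% of all genes, with a median of 0.04. Hbb-b2, a beta globin, had 507 and 1975, a difference of 1.96, and 3.71 in the vancomycin pair. Hba-a1 was at 0.04 and Alas2 at -0.40, while Klf1, an erythroid factor, had 27.7 and 299, a difference of 3.43 that was 1.59 with normexp correction. Haemoglobin genes share sequence, so their probes may read more than 1 of them. Adrenal genes, which the neighbouring gland would give, had 1 of 9 past 2-fold, against 7.32% of all genes higher. It was Cyp21a1 at 1.15 with 63.0 and 139 (0.42 with normexp correction). The adrenal Cyp11b1, Cyp11b2, Mc2r, Chga, Chgb and Dbh were not above background on either array.

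The largest difference to the ZT2 side among genes above background on both arrays was that of Hdc, histidine decarboxylase, with 6156 at ZT2 and 38.8 at ZT14, a difference of -7.31 or 158-fold. Its 3 probes ranged from -7.31 to -0.44. Ftcd, an enzyme of histidine breakdown, had 13427 and 1367, a difference of -3.30. Others were Nnat (-4.07), Igf2bp1 (-3.62), Mfi2 (now Meltf, -3.44), Nov (now Ccn3, -3.27) and Sntg2 (-3.26 and -3.09 by 2 probes).

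Among genes of mean signal above the 75th percentile, Cwc22, a splicing factor, had 2851 and 519, a difference of -2.46 that was the smallest among its 4 probes above background on both arrays. Fgf1 (24421 and 7019, -1.80), Matn2 (-1.86, with 4 probes up to -0.12) and Fabp5 (-1.79) followed. Of genes above background at ZT2 alone, Adrb3, the fat cell adrenergic receptor, was at least 25.3-fold lower and Fabp9 at least 12.9-fold. With normexp correction their log2 differences were -2.37 and -1.51.

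On the ZT14 side the largest difference was Il22ra1, a chain of the interleukin 22 receptor, with 45.5 at ZT2 and 1362 at ZT14, a difference of 4.90 or 29.9-fold. Trpm1 (4.34), Gabra3 (4.24), Pinx1 (4.23), Dct (4.12), Stra6 (4.04), Pik3ca (3.89), Erich6 (3.85), Pla2g2c (3.65) and Cdk14 (3.47) followed. Trpm1 and Dct are best known from pigment cells, and 9 of the 10 rest on a single probe. That of Il22ra1 holds a purine triplet repeat of the kind described further on. With normexp correction Il22ra1 was at 3.18, Dct at 3.29, Gabra3 at 2.08, Erich6 at 2.14, Pla2g2c at 2.28 and Cdk14 at 1.85. Among bright genes were Pnma2 (3.18), Vax2 (3.14), Syt10 (3.02), Psmc3ip (2.98), Grin2d (2.96), Ppp1r3b (2.59) and Cish (2.59).

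Ppp1r3b, a glycogen-targeting subunit of protein phosphatase 1, had 4956 at ZT2 and 29938 at ZT14, and 2.60 in the vancomycin pair. Cish, a suppressor of cytokine signalling, had 1014 and 6122, and 3.07 in the vancomycin pair. Psmc3ip had 2 probes above background on both arrays, at 2.60 and 2.98. Pianp, Casp14, Tnnc2, Mchr1 and Cox7b2, above background at ZT14 alone, were at least 46.8, 21.5, 13.6, 13.5 and 9.83-fold higher. With normexp correction their log2 differences were smaller, at 2.98, 2.19, 1.57, 1.69 and 1.13. The probe of Cox7b2 holds a purine triplet repeat of the kind described next.

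The probes behind the largest ZT14 values share letters. Of the 10 genes with the largest difference 5 had a probe with a purine triplet repeat (Il22ra1, Trpm1, Pinx1, Stra6 and Pik3ca). So had 4 of the 10 bright ones (Trpm1, Pinx1, Pik3ca and Pnma2), against 0 of the 10 in either group on the lower side. This was noticed after the values were seen. Windows of 30 bases from 6 such 60-base probes are shown, 5′ to 3′ in the direction of the array probe, with the 10-base repeat in capitals. They are those of Trpm1, Pinx1, Stra6, Pik3ca, Akap7 and Prickle1, the last 2 chosen because other probes of the same gene do not hold the repeat.
Trpm1: agaagaaaaaGAAGAAGAAGaaagaggaag
Pinx1: aaGAAGAAGAAGaaagtttccagataactt
Stra6: caggccggcaGAAGAAGAAGaagggatgca
Pik3ca: agaaaGAAGAAGAAGaatggaatctggttg
Akap7: gagaagcaaaGAAGAAGAAGaagatagagg
Prickle1: aGAAGAAGAAGgctatttccttgcccaccc

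The 63 probes above background on both arrays that hold this 10-base repeat had a median difference of 2.03, and 76.2% of them were at least 2-fold higher at ZT14, against 6.17% of all 33200 probes. In the vancomycin pair their median was 1.03. The 102 probes with AAGAAGAAG, which include those 63, had a median of 1.32 and 55.9% past 2-fold, and the 42 with GAGGAGGAG a median of 0.65 and 47.6%. Probes with any of these letters were 0.413% of all probes and 14.8% of the 310 that were at least 4-fold higher.

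Probes under 1 gene name of the array parted at the repeat. Akap7 had 1042 at ZT2 and 19680 at ZT14 with its repeat probe, a difference of 4.24, and -0.38 to 0.20 with its other 2. Prickle1 had 4.13 with the repeat probe and -0.28 to 0.23 with the other 2. The repeat probe the array names Pigr, placed at chr19:5932558-5932617 of mm9, had 2.04, and the other probe of that name -0.35. Whether that repeat probe reads the Pigr transcript was not tested. Over 54 array gene names with both kinds of probe the median was 0.37 for the repeat probe and 0.08 for the others. At least 2-fold higher were 17 repeat probes against 2 of the others.

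Base content went with the difference more broadly. The median was -0.12 for 10795 probes with 35 to under 40% G and C, 0.05 for 45 to under 50%, and 0.44 for the 630 with 60% or more, of which 21.6% were at least 2-fold higher. In the vancomycin pair these medians were -0.14, 0.07 and 0.45. With each probe centred on its base content class, 1867 genes were higher and 845 lower. Both pairs compare the same 2 slides, and slide and time cannot be told apart.

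**Figure D5:**
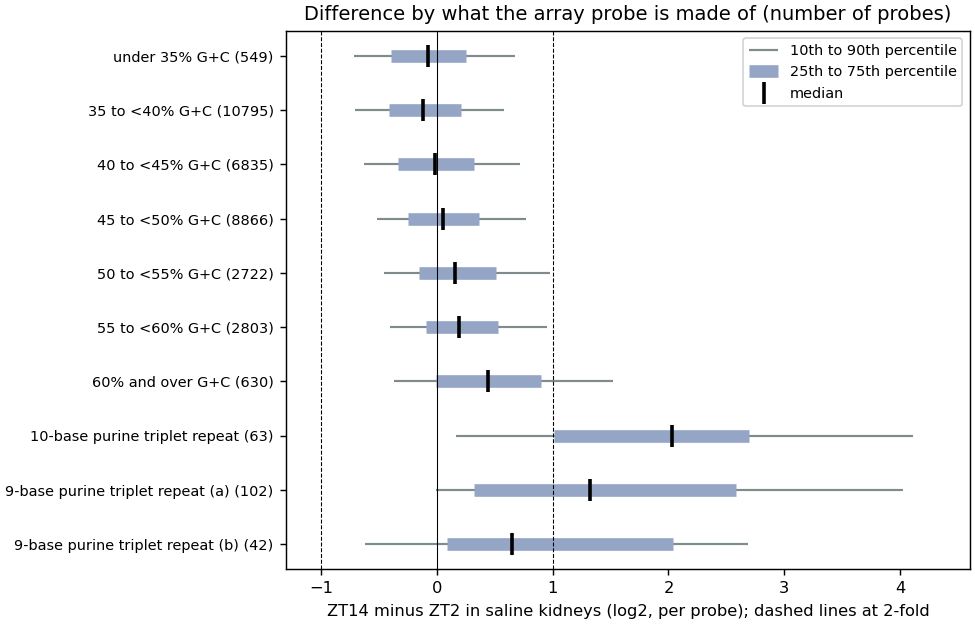
ZT14 minus ZT2 in saline kidneys (log2) of array probes above background on both arrays, by G and C content and for 3 purine triplet repeats (the class marked b is the 9-base one with more G), as the median, the 25th to 75th and the 10th to 90th percentile. The median lies at 0.44 for the most G and C rich class and at 2.03 for the 10-base repeat.

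Agreement between probes was limited throughout. Of 7455 genes with at least 2 probes above background on both arrays, the probes of a gene spread over a median of 0.49 and a 90th percentile of 1.26 (log2). Of 291 such genes past 2-fold higher by the brightest probe, 32 (11.0%) were past it by every probe, and of 124 lower, also 32 (25.8%). Cfd, Cnn1, Actn2, Car3, Cwc22, Fgf1, Postn and Sntg2 were among the latter.

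The 4 arrays allow the saline difference to be set beside the one after vancomycin, over 20748 genes above background on all 4. Of 1459 genes at least 2-fold higher at ZT14 in saline (7.03%), 1003 were so in vancomycin too, 68.7% of the saline and 57.9% of the 1732 vancomycin genes (8.35% of all). Of 584 lower in saline (2.81%), 188 were lower in both pairs, 32.2% of the saline and 33.0% of the 569 vancomycin genes (2.74% of all). Across genes the differences of both pairs had a Pearson r of 0.64 and a Spearman rho of 0.63. The pairs share slides but no array, and genes are not independent replicates, so this is a description. For 138 of the 584 lower genes (23.6%) the saline ZT2 array was at least 2-fold above each of the other 3 arrays, and for 75 of the 1459 higher genes (5.14%) the saline ZT14 array was.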

How the data were processed

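Total RNA of kidney was labelled with Cy3 and hybridized to 1-colour Agilent mouse arrays of 60-base probes, per the labels' protocols. Per the file headers, Agilent Feature Extraction 10.7.1.1 read the images, and the notes on processing by the submitters list 9.5.1.1. The deposited processed signal is an intensity, background-subtracted and detrended within each array and not normalized between arrays. The authors' deposited value table holds intensity values with the same median in every array and served only as an alternative. Spot flags for background, saturation and outliers (the other deposited columns used) come from the scanner files, per the file headers, and 0 non-control spots were saturated. Here each array's 75th percentile was subtracted from its log2 signals, with flagged spots left out (2 probes entirely), spots of a probe averaged, and probes called above background where at least 50% of spots were. A bound sets the dim array at the higher of its own signal and the lowest signal well above background there. The 75th percentiles were 548 at ZT2 and 678 at ZT14, with 62.2% and 64.7% of spots above background. Arrays give no read depth, and the number of arrays, 1 per group, limits the precision. Each gene took its brightest probe. No test was made. The functions were tested on simulated data. Gene names are those of the array, and 32994 of 56605 probes matched RefSeq by accession and 10224 more by symbol. Named genes were all clock list members, the 10 largest differences each way among genes above background on both arrays and among the bright ones, 5 bounds each way, 3 each way per other list and any tissue marker, with an ordinary symbol and probes of 1 sign for the largest. Exceptions chosen after their values were seen are Akap7, Prickle1, Pigr, Pdk1, Krt20, Serpina3n, Orm1 and the probe repeats. The members and lists were chosen with earlier results of these data known. Alternatives were scaling, normexp (limma 3.58.1), the authors' table, filters, a pseudocount of 32 and the mean over probes. Python 3.11.15 was used. A few list members are not reported here by name, though counts and medians include them.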

Additional observations from a re-analysis of the deposited data

Results flagged for a closer look

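For 7 named genes the ZT14 array lay on opposite sides of the ZT2 array in the 2 treatments, by at least 2-fold each time. With 1 array per group and time, the difference between treatments was not tested. Hdc differed by -7.31 in saline and 9.91 after vancomycin (log2, ZT14 minus ZT2). Havcr1 (KIM-1) differed by 3.15 in saline and -4.30 after vancomycin. Cdk14 had 3.47 and -1.25 by its brightest probe, while its other probe, above background on 1 saline array, gave 0.03 in saline. Cwc22 had -2.46 and 2.80. Abcb1b had 1.17 and -1.44, Igfbp1 1.09 and -1.52, and the adrenal gene Cyp21a1 1.15 and -2.86. Over the genes above background on all 4 arrays, 37 of 584 lower in saline were at least 2-fold higher at ZT14 after vancomycin, and 14 of 1459 higher in saline were at least 2-fold lower.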

How the results depend on the processing

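Of 96 named genes at least 2-fold different, 0 changed sign under the 8 other settings of scaling, background, filter, pseudocount and probe choice, among those that kept a value. Past 2-fold in the same direction were 88 with median scaling, 90 with quantile normalization, 90 with the authors' table, 77 with normexp correction, 82 with a pseudocount of 32 and 87 with the mean over probes. Normexp correction left 784 genes higher and 320 lower, with 0 clock genes higher. A pseudocount of 32 left 967 higher and 425 lower, with 1 clock gene higher. Both pull dim signals together by construction. Without a filter, which adds dim probes, 3855 were higher and 2265 lower, with 2 clock genes lower. With the median 1648 were higher and 1088 lower, a share of 60.2%, against 62.3% higher with the authors' table. Chosen after the data were seen, leaving out repeat probes gave 1958 higher and 841 lower, with 2 clock genes higher and 1 lower. Taking the smallest change among at least 2 probes left 32 higher and 32 lower of 7455 genes, with 0 clock genes higher and 0 lower of 25, since that setting holds fewer genes and none of the single-probe ones. The fat cell median ran from -1.97 to -0.71 over those 8 settings. No paired analysis was possible because each group has 1 sample. Signal over background limits the dim genes, Cry1 and Klf1 among them.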

Other observations

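Genes with at least 2 probes above background on both arrays, every one of them past 2-fold, were picked after their values were seen. On the ZT14 side the steadiest were Psmc3ip, of meiotic recombination, with a smallest probe difference of 2.60, Gabrr1, a GABA receptor subunit, with 2.15, Vwa1, a matrix protein, with 2.05, Gcm1, a transcription factor, with 1.98, all 3 of whose probes hold the 10-base purine repeat, and Akr1e1, an aldo-keto reductase, with 1.85. On the ZT2 side they were Cfd (-6.58), Sntg2 (-3.09), Cwc22 (-2.46), Cnn1 (-2.41) and Actn2 (-2.00). Bcl6, a transcriptional repressor, had 20304 at ZT2 and 9783 at ZT14 with a smallest difference of -1.05.

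Cell cycle genes lay slightly below 0 in saline, with 18 of 26 negative, a median of -0.28 and 1 (Cdkn1a) past 2-fold, and had a median of 0.92 in the vancomycin pair. Among androgen-responsive and sex-linked genes Kap, the kidney androgen-regulated protein, had 242798 at ZT2 and 525266 at ZT14 (1.11, or 0.44 after quantile normalization), and Gusb 34826 and 15948 (-1.13). Among neutrophil genes Ly6g was at 1.59 and Camp at -1.70 (-0.76 with normexp correction), so that list had no common direction. The spike-in control with the largest difference had 51556 at ZT2 and 94722 at ZT14 in saline, a difference of 0.88, and 0.91 in the vancomycin pair.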
